A study of Mus musculus with 18 samples.

Results

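The genes described here are 31 genes of microglia and brain macrophages, read in RNA from laser-captured dopamine neurons of the mouse midbrain. They were chosen as a list of names, and each gene took the probe sets of the array whose only gene symbol in the platform annotation was that gene. All 31 names were found, on 43 of the 34945 probe sets with a single symbol, among 18193 genes in all. Of the 31 genes, 7 had several probe sets (Cx3cr1, Csf1r, C1qb, Trem2, Laptm5, Ptprc and Irf8), which were averaged.

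Dopamine neurons were captured from the ventral tegmental area (VTA) and the substantia nigra (SN) of adult hTH-GFP transgenic mice on the C57Bl/6 strain, in which a human tyrosine hydroxylase construct marks dopamine neurons with a green protein. MPTP is a toxin that is taken up by dopamine neurons after its conversion in glia. In each region 3 arrays came from mice given MPTP at 4 mg/kg for 2 days, 3 from mice given it for 10 days and 3 from mice given saline for 10 days, which makes 18 arrays in 6 groups. All mice carried the transgene, had been housed singly for 9 weeks and brains were taken 7 days after dosing ended. The sample descriptions call the saline animals untreated, while the treatment protocol and the design text name saline. The labels do not say how many mice one array holds, whether VTA and SN arrays share mice, or how neurons were recognised before capture.

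Microglia are the resident phagocytes of the brain. They arise from yolk sac precursors, depend on signalling through the receptor Csf1r, and patrol the tissue with fine processes that respond to nucleotides and to the neuronal chemokine fractalkine. The midbrain is rich in microglia, and in MPTP models their activation around dying dopamine neurons is well known from tissue staining. Perivascular macrophages, which carry Mrc1 and Cd163, are a related population along the vessels.

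The values are log2 signals set to a median of 0 over the 18 arrays for every probe set, so a value of -1 is a signal 1 log2 unit under that gene's own median. They hold no absolute level: the labelled cell type could not be checked against its markers, and no gene could be called present or absent. A microglial transcript in these samples can come from cells captured beside or wrapped around the neurons, and in such bulk RNA fewer cells of a type and less RNA per cell cannot be told apart. The arrays differed in their spread. The median absolute deviation over all probe sets was 0.399 on VTA array 1 after 2 days of MPTP and 0.349 on SN saline array 1, against 0.182 to 0.302 on the other 16 arrays.

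**Figure D1:**
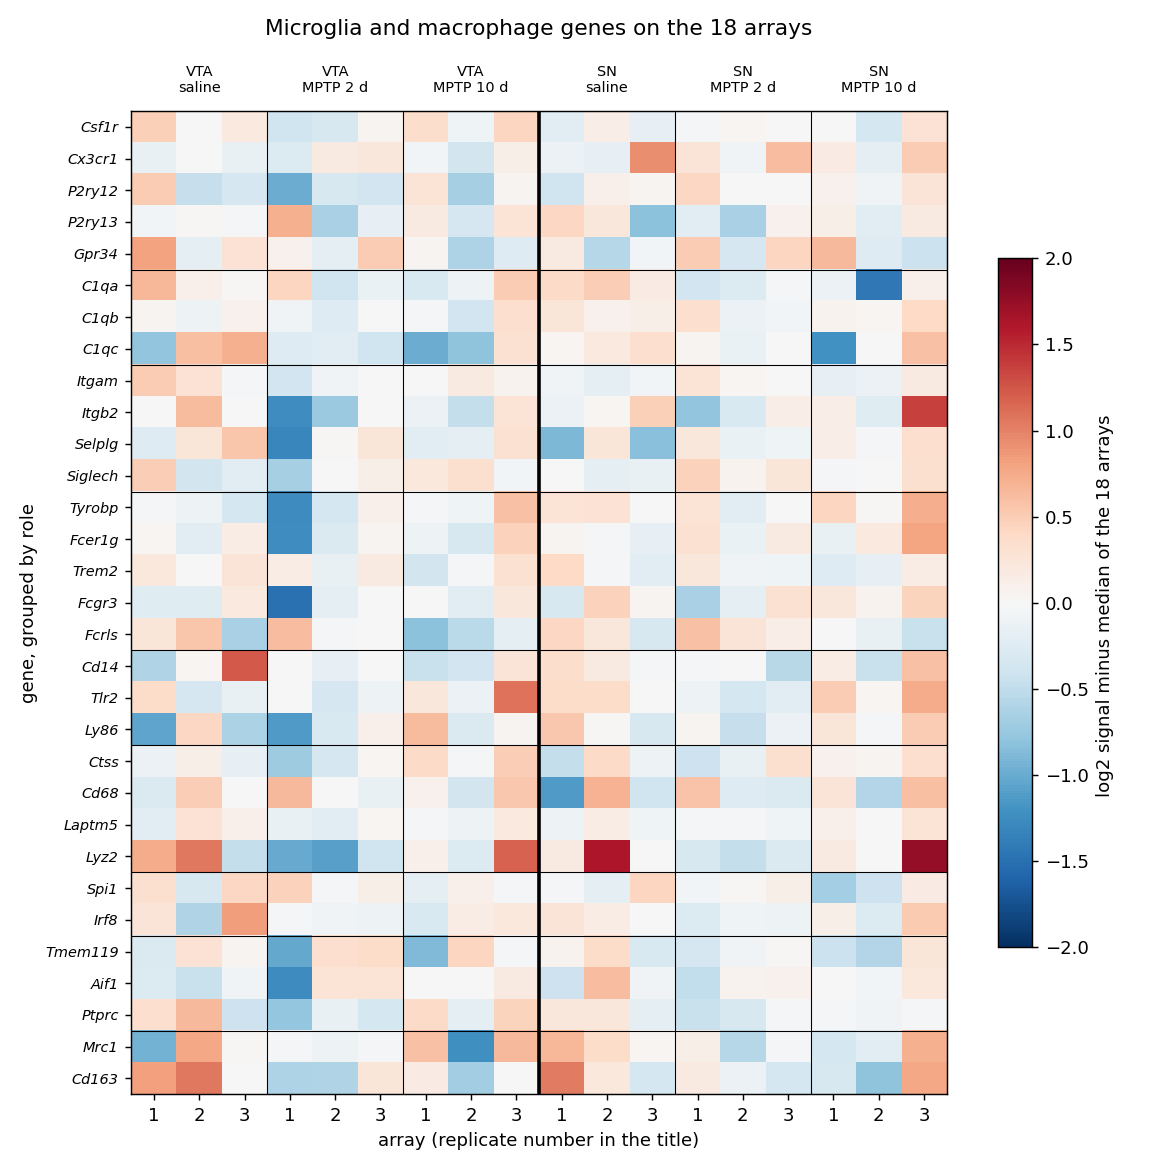
Centred log2 signal of the 31 genes (rows, grouped by role) on the 18 arrays (columns, by region and treatment); red is above and blue below the gene's median over the arrays, with the colour scale running from -2 to 2. The blue column of VTA array 1 after 2 days of MPTP, and the red columns of array 3 after 10 days of MPTP in both regions, stand out, and the deepest red is Lyz2 on SN array 3 after 10 days of MPTP (1.76).

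No gene of the 31 passed the test in any of the 11 comparisons (limma, Benjamini-Hochberg adjusted p under 0.05 over 18193 genes). Over all genes the share that passed was 0% in SN and 0.011% in VTA after 2 days of MPTP against saline, and 0.0055% in SN and 0.011% in VTA after 10 days. For 10 against 2 days of MPTP it was 0.0165% in SN and 0.033% in VTA. It was 0% in the 3 comparisons of VTA with SN and in the 2 comparisons of the regions' responses. At an unadjusted p under 0.05 in the same fit, 12 of the 31 genes (38.7%) appeared in at least 1 of the 11 comparisons, against 27.6% of all genes. The differences below are therefore given as values with their standard errors (SE) and not as changes.

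The 31 genes lay lowest, as a list, in VTA after 2 days of MPTP. There 26 of 31 were below and 5 above the VTA saline mean, and their median difference was -0.23, while the median over all genes was -0.0082 with 51.6% of genes below. In SN after 2 days, 21 of 31 were below and 10 above the SN saline mean, with a median of -0.16, against -0.027 over all genes with 55.3% below. After 10 days of MPTP the list lay close to saline in both regions. Its median was -0.031 in VTA, with 17 genes below and 14 above, and 0.065 in SN, with 12 below and 19 above, while all genes had medians of -0.0047 in VTA, with 50.9% of genes below, and -0.017 in SN, with 53.4% below.

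At 2 days 19 genes were below saline in both regions, 3 were above in both (Cx3cr1, Fcrls and Cd68), 7 were below in VTA and above in SN and 2 (Aif1 and Spi1) were above in VTA and below in SN. Cx3cr1 was above only as the mean of its 2 probe sets, which differed in sign in both regions. At 10 days the counts were 9 below in both, 11 above in both, 8 below in VTA and above in SN and 3 above in VTA and below in SN. The 2 durations share the saline arrays of their region, and the same counts over all genes were not taken. Counts in both regions follow in part from those within each region, so they do not measure agreement between the regions.

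**Figure D2:**
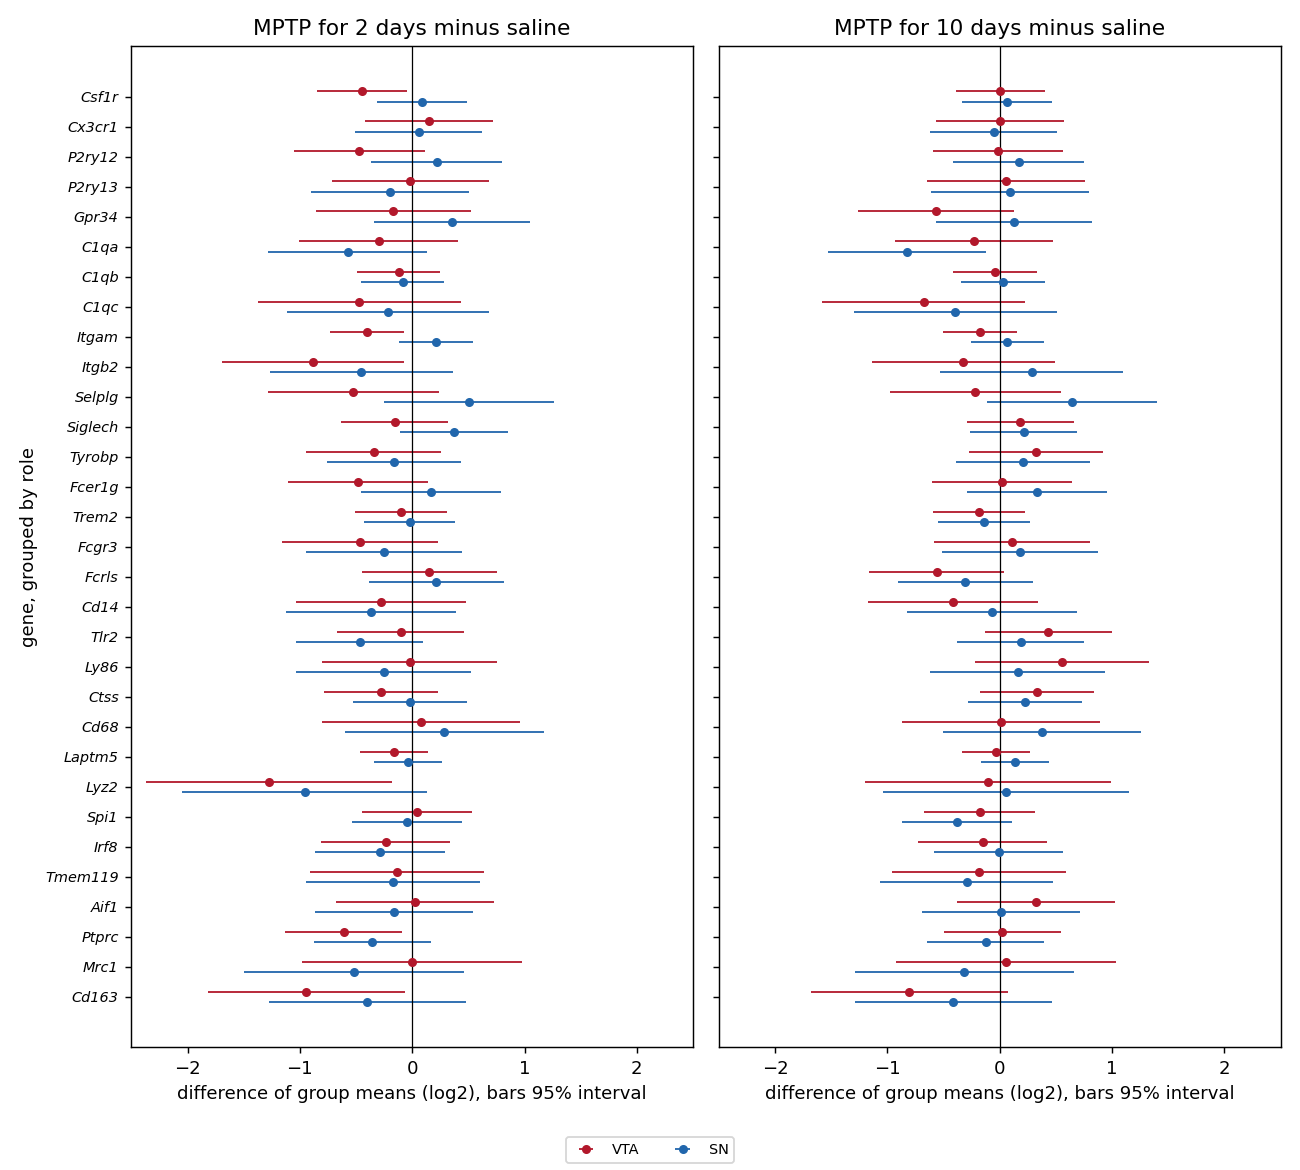
Difference of group means (log2, MPTP minus saline) of each gene after 2 days (left) and 10 days (right) in VTA (red) and SN (blue); points are the differences and bars their 95% intervals from the limma fit, without adjustment for the number of genes. In VTA after 2 days 26 of 31 points lie left of 0 and 6 intervals do not reach it; in SN after 10 days only the interval of C1qa does not reach it.

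The list's mean on single arrays shows how unevenly the groups were filled. In VTA it was -0.42, -0.22 and 0.015 after 2 days of MPTP, against 0.049, 0.14 and 0.049 on the saline arrays (means -0.21 ± 0.22 and 0.078 ± 0.050, SD, n = 3 each). All 3 arrays after 2 days of MPTP lay below the 3 saline arrays. In SN it was 0.0068, -0.16 and 0.014 after 2 days, against 0.056, 0.21 and -0.068 on the saline arrays (means -0.048 ± 0.10 and 0.065 ± 0.14), and the groups overlapped. After 10 days it was -0.042, -0.25 and 0.29 in VTA and -0.0022, -0.20 and 0.42 in SN. In both regions array 3 was the highest and array 2 the lowest, and each group spanned the saline arrays of its region. VTA and SN arrays of the same number may share mice. On SN array 3 after 10 days 28 of the 31 genes were above their own median over the arrays, against 51.4% of all genes.

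Leaving out one array moved these medians. Without VTA array 1 after 2 days of MPTP the median of the list in VTA was -0.14 with 25 of 31 genes still below saline, and without array 3 it was -0.31. Array 1 was the lowest of all 18 for 14 of the 31 genes (45.2%), and for 12.7% of all genes. After 10 days the sign depended on 1 array. Without array 3 the median was -0.20 in VTA and -0.087 in SN, and without array 2 it was 0.14 in VTA and 0.20 in SN.

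**Figure D3:**
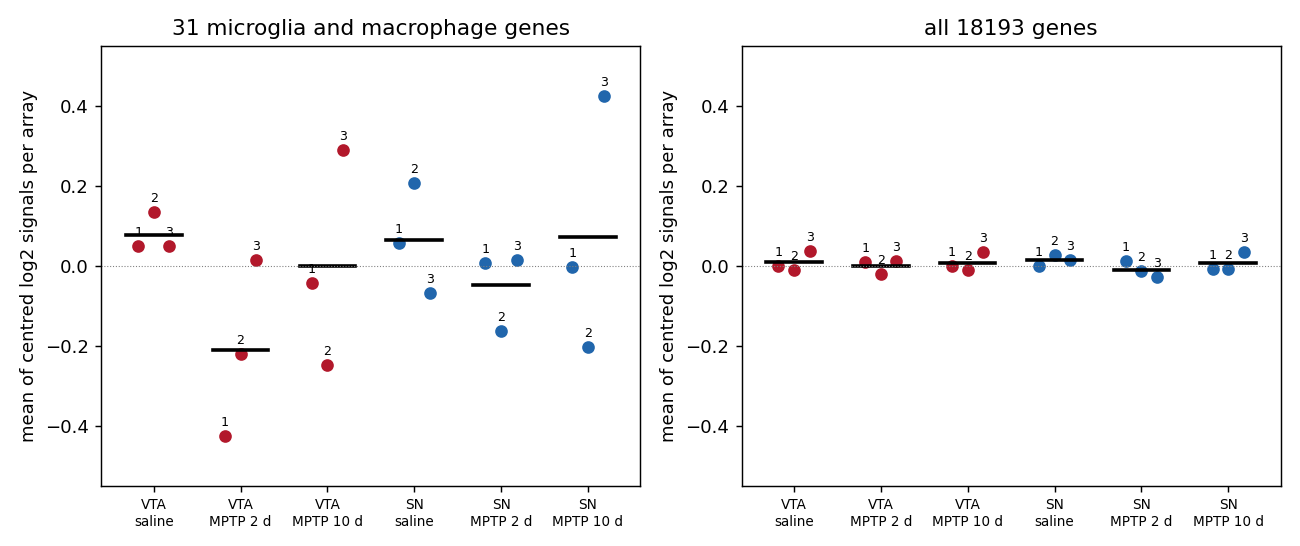
Mean of the centred log2 signals per array over the 31 genes (left) and over all 18193 genes (right), by region and treatment; points are arrays with their replicate number and bars are group means of 3 arrays. The list's mean ranged from -0.42 on VTA array 1 after 2 days of MPTP to 0.42 on SN array 3 after 10 days, while the mean over all genes stayed between -0.029 and 0.038.

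Csf1r, the receptor for the survival factors CSF1 and IL-34, was at -0.39, -0.32 and 0.057 in VTA after 2 days of MPTP, against 0.47, 0.012 and 0.20 on VTA saline arrays. MPTP array 3 lay among the saline arrays. The difference was -0.45 ± 0.19 (SE, limma adjusted p = 0.58), and its 3 probe sets gave differences from -0.63 to -0.32. In SN the same gene differed from saline by 0.088 ± 0.19 after 2 days, and after 10 days the differences were 0.0065 ± 0.19 in VTA and 0.065 ± 0.19 in SN.

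Among the purinergic and chemokine receptors, P2ry12, the ADP receptor that steers microglial processes, was at -0.99, -0.33 and -0.39 in VTA after 2 days of MPTP, against 0.50, -0.46 and -0.33 on VTA saline arrays. The groups overlapped, with a difference of -0.47 ± 0.27 (SE). Cx3cr1, the fractalkine receptor, was at -0.28, 0.19 and 0.22 on the same MPTP arrays, against -0.15, -0.0091 and -0.14 with saline, a difference of 0.15 ± 0.27. Its 2 probe sets differed in sign, at -0.23 and 0.52. Cx3cr1 in SN after 2 days was at 0.27, -0.070 and 0.61, against -0.12, -0.17 and 0.93 with saline, and these groups also overlapped. There too its 2 probe sets differed in sign, at -0.21 and 0.33. P2ry13, a second ADP receptor, and Gpr34, a receptor for lysophosphatidylserine, had differences from -0.57 (Gpr34, VTA, 10 days) to 0.35 (Gpr34, SN, 2 days), all with overlapping arrays.

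The 3 chains of complement C1q, which microglia make and which tags synapses and debris, were below saline in both regions after 2 days of MPTP. For C1qb this holds for the mean of its 3 probe sets. C1qa was at -0.12, -1.43 and 0.10 in SN after 10 days of MPTP, against 0.38, 0.49 and 0.16 on SN saline arrays. Every MPTP array lay below every saline array, and array 2 lay far below the other MPTP arrays. The difference was -0.83 ± 0.33 (SE, limma adjusted p = 0.887), and it was -0.35 without array 2. C1qa also lay below all saline arrays in SN after 2 days, at -0.39, -0.28 and -0.026, with a difference of -0.57 ± 0.33. In VTA it was at 0.43, -0.41 and -0.14 after 2 days, against 0.66, 0.10 and 0.026 with saline, and the groups overlapped.

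The other chains did not share that pattern array by array. C1qb differed from saline by -0.12 ± 0.18 in VTA and -0.086 ± 0.18 in SN after 2 days, and by -0.041 ± 0.18 and 0.028 ± 0.18 after 10 days. Its 3 probe sets were all below saline in VTA after 2 days, but gave -0.26, 0.0014 and 0.0015 in SN. After 10 days they gave -0.28, 0.099 and 0.057 in VTA and -0.32, 0.15 and 0.25 in SN. C1qc was at -1.0, -0.81 and 0.30 in VTA after 10 days of MPTP, against -0.79, 0.60 and 0.71 with saline, a difference of -0.68 ± 0.42. In SN after 10 days C1qc was lowest on array 1 (-1.20), where C1qa was at -0.12, and near 0 on array 2 (-0.0030), where C1qa was lowest.

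Itgam and Itgb2 encode CD11b and CD18, which pair as complement receptor 3. In VTA after 2 days of MPTP Itgb2 was at -1.25, -0.74 and -0.0066, against 0.012, 0.63 and 0.0066 on VTA saline arrays. It was the 1 gene of the 31 whose arrays did not overlap in this comparison, against 10% of all genes, and the gap between the groups was narrow. The difference was -0.88 ± 0.38 (SE, limma adjusted p = 0.597), and it was -0.59 without array 1. Itgam was at -0.38, -0.068 and 0.010 on the same arrays, against 0.51, 0.29 and -0.031 with saline. Saline array 3 lay among the MPTP arrays, and the difference was -0.40 ± 0.15 (limma adjusted p = 0.546).

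Itgam in SN after 2 days was at 0.27, 0.034 and 0.014, against -0.075, -0.19 and -0.061 on SN saline arrays. Here every MPTP array was above every saline array, by a difference of 0.21 ± 0.15 (limma adjusted p = 0.838). The response of Itgam in VTA minus that in SN was -0.62 ± 0.22 (limma adjusted p = 1), the smallest p of the 31 genes in that comparison, where 3.3% of all genes had an unadjusted p under 0.05. Siglech, a sialic acid-binding lectin of microglia, was at 0.46, 0.063 and 0.25 in SN after 2 days, against -0.0023, -0.19 and -0.15 with saline, again without overlap and with a difference of 0.37 ± 0.23. Selplg, the ligand of P-selectin, differed by -0.52 ± 0.36 in VTA and 0.50 ± 0.36 in SN.

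The arrays of 6 genes did not overlap with saline in SN after 2 days, 4 below (C1qa, Tlr2, Lyz2 and Irf8) and 2 above (Itgam and Siglech), against 14.5% of all genes. Irf8 was apart only as the mean of 2 probe sets, each of which overlapped. After 10 days it was 1 gene in SN (C1qa, below), against 11.3% of all genes, and 1 in VTA (Aif1, above), against 9.31%. These counts lie near or under the share of all genes, apart from SN at 2 days, where they lie somewhat above it.

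Tyrobp (DAP12) and Fcer1g are adaptors with an activation motif that carry signals for receptors such as Trem2 and Fcgr3. Tyrobp was at -1.26, -0.36 and 0.10 in VTA after 2 days of MPTP, against -0.041, -0.10 and -0.35 on saline arrays, and Fcer1g was at -1.24, -0.29 and 0.059, against 0.046, -0.23 and 0.16. Both were lowest on array 1, and on array 3 Fcer1g lay within the saline range and Tyrobp above it. The differences were -0.34 ± 0.28 for Tyrobp and -0.48 ± 0.29 for Fcer1g (SE). Fcgr3, a low-affinity receptor for IgG, had the same low array at -1.50 beside -0.18 and -0.013, against -0.24, -0.24 and 0.19 with saline. Trem2, a lipid-sensing receptor, stayed between -0.15 and 0.18 on these MPTP arrays, against -0.012 to 0.26 with saline. Its differences from saline lay between -0.18 and -0.022 over both regions and durations, each with an SE of 0.19.

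Lyz2, lysozyme of macrophages and neutrophils, varied most of the 31 genes, with an SD of 0.83 over the 18 arrays. It was at -1.01, -1.09 and -0.40 in VTA after 2 days of MPTP, against 0.74, 1.05 and -0.47 on VTA saline arrays. In SN after 2 days it was at -0.32, -0.48 and -0.29, against 0.18, 1.62 and -0.015 with saline. Saline array 3 lay among the MPTP arrays in VTA, and in SN the groups did not overlap. The difference was -1.27 ± 0.52 in VTA (SE, limma adjusted p = 0.565), a fold of 0.413, and -0.96 ± 0.52 in SN (limma adjusted p = 0.784). Without SN saline array 2 the SN difference was -0.44.

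In the 10-day groups Lyz2 was at 0.10, -0.27 and 1.18 in VTA and 0.18, 0.015 and 1.76 in SN. The array 3 of each group was the highest. Of the other lysosomal genes, the protease gene Ctss (cathepsin S) was at -0.71, -0.34 and 0.041 in VTA after 2 days, against -0.12, 0.11 and -0.17 with saline, a difference of -0.27 ± 0.24. Cd68, a lysosomal glycoprotein of phagocytes, differed by 0.081 ± 0.42 in VTA and 0.29 ± 0.42 in SN, with saline arrays in SN from -1.13 to 0.69. Laptm5, averaged over 5 probe sets, had an SD of 0.15 over the 18 arrays, the lowest of the list, and differences from -0.16 to 0.14. Its single probe sets had SDs from 0.18 to 0.43 and disagreed in sign, with differences from -0.54 to 0.13 in VTA and -0.37 to 0.31 in SN after 2 days.

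The 3 pattern recognition genes were below saline in both regions after 2 days. Tlr2, a receptor for bacterial lipoproteins, was at -0.10, -0.36 and -0.22 in SN after 2 days of MPTP, against 0.37, 0.37 and -0.011 on SN saline arrays. The groups did not overlap, and the difference was -0.47 ± 0.27 (SE, limma adjusted p = 0.799). Cd14, a lipopolysaccharide co-receptor, and Ly86, which encodes the MD-1 protein, differed by -0.36 ± 0.36 and -0.25 ± 0.37 in SN. The VTA differences after 2 days were -0.10 ± 0.27 for Tlr2, -0.28 ± 0.36 for Cd14 and -0.021 ± 0.37 for Ly86.

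Ptprc encodes CD45, a phosphatase of nucleated blood-lineage cells, and was at -0.77, -0.14 and -0.35 in VTA after 2 days of MPTP, against 0.33, 0.64 and -0.41 on saline arrays. Saline array 3 lay among the MPTP arrays. The difference was -0.61 ± 0.25 (SE, limma adjusted p = 0.565), but its 2 probe sets gave -1.22 and 0.0017, and the difference was -0.38 without saline array 2. Tmem119, a marker of resident microglia, was at -1.03, 0.33 and 0.37, against -0.28, 0.29 and 0.059 with saline. Aif1 (Iba1), the usual histological marker, was at -1.26, 0.28 and 0.27, against -0.27, -0.44 and -0.070. Both were at their lowest on array 1 and above the saline mean on the other arrays, with differences of -0.13 ± 0.36 and 0.024 ± 0.33.

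After 10 days Aif1 in VTA was at -0.0064, 0.0064 and 0.17, all above the saline arrays, with a difference of 0.32 ± 0.33. The transcription factors Spi1 (PU.1) and Irf8, which specify the microglial lineage, differed from saline by 0.043 ± 0.23 and -0.23 ± 0.27 in VTA and by -0.047 ± 0.23 and -0.29 ± 0.27 in SN after 2 days. The Spi1 difference in SN after 10 days was -0.38 ± 0.23, from values of -0.68, -0.41 and 0.16, against -0.028, -0.19 and 0.44 with saline.

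Of the scavenger receptors of perivascular macrophages, Cd163, which takes up haemoglobin with haptoglobin, was at -0.61, -0.60 and 0.25 in VTA after 2 days of MPTP and at 0.16, -0.69 and -0.0045 after 10 days, against 0.82, 1.05 and 0.0045 on VTA saline arrays. Saline array 3 was close to 0 in a group whose other arrays were high. The differences were -0.94 ± 0.41 after 2 days (SE, limma adjusted p = 0.6) and -0.80 ± 0.41 after 10 days (limma adjusted p = 0.912). Mrc1, the mannose receptor, was at -0.019, -0.11 and -0.031 in VTA after 2 days, against -0.95, 0.78 and 0.017 with saline, a difference of -0.0023 ± 0.46. In SN the differences after 2 days were -0.40 ± 0.41 for Cd163 and -0.52 ± 0.46 for Mrc1.

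In VTA after 2 days of MPTP, 6 of the 31 genes (Itgam, Ptprc, Lyz2, Csf1r, Itgb2 and Cd163) had an unadjusted p under 0.05, all below saline, against 3.92% of all genes in that direction and 8.06% in either. Without array 1 of that group none of the 31 was below saline at this threshold, and without array 3 it was 10. In SN it was 0 genes after 2 days, against 6.65% of all genes in either direction, and 1 (C1qa) after 10 days, against 5.57%. In VTA after 10 days it was 0, against 5.41%, and the smallest p belonged to Fcrls, an Fc receptor-like gene of microglia, and Cd163. Fcrls was at -0.82, -0.54 and -0.18 there, against 0.24, 0.55 and -0.65 with saline, a difference of -0.56 ± 0.28 (SE). It was -0.31 without saline array 2 and -0.91 without saline array 3.

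Between the durations, 22 of the 31 genes in VTA and 18 in SN were higher after 10 days than after 2 days, with median differences of 0.14 in both regions, against 2e-04 over all genes in VTA, with 50.1% higher, and 0.0088 in SN, with 52.1% higher. In VTA 5 genes were higher and 1 lower at an unadjusted p under 0.05, against 6.34% of all genes in either direction. Those higher were Ptprc (0.63 ± 0.25), Ctss (0.61 ± 0.24), Csf1r (0.45 ± 0.19), Tyrobp (0.66 ± 0.28) and Lyz2 (1.17 ± 0.52), and Fcrls was lower (-0.71 ± 0.28). Their limma adjusted p ranged from 0.715 to 0.766. Without array 1 of the 2-day group the Tyrobp difference was 0.29, and without array 3 of the 10-day group that of Lyz2 was 0.75. Lyz2 was higher and Fcrls lower on every 10-day array than on every 2-day array in VTA, 2 genes of 31, against 10.2% of all genes.

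In SN the same comparison had 1 gene at an unadjusted p under 0.05, against 3.02% of all genes. Tlr2 was at 0.51, 0.037 and 0.74 after 10 days, against -0.10, -0.36 and -0.22 after 2 days, a difference of 0.66 ± 0.27 (SE, limma adjusted p = 1). No 10-day array overlapped with a 2-day array for Tlr2, Lyz2 and Laptm5 (higher after 10 days) or Fcrls (lower), 4 genes of 31, against 11.1% of all genes. Laptm5 was apart only as the mean of 5 probe sets, each of which overlapped. Without SN array 3 after 10 days the median difference of the list was -0.016.

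Between the regions the list differed little with saline. The median of VTA minus SN was 0.037, with 17 of 31 genes higher in VTA, against 50% of all genes. Itgam was at 0.51, 0.29 and -0.031 in VTA, against -0.075, -0.19 and -0.061 in SN, without overlap. Its difference was 0.36 ± 0.15 (SE, limma adjusted p = 1), the 1 gene of 31 under an unadjusted p of 0.05, against 4.36% of all genes, and it was 0.24 without VTA saline array 1. Tyrobp also did not overlap, at -0.041, -0.10 and -0.35 in VTA, against 0.28, 0.29 and -0.013 in SN. Together these were 2 genes of 31 without overlap, against 7.31% of all genes.

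After 2 days of MPTP 21 of 31 genes were lower in VTA than in SN, with a median difference of -0.17, against 0.016 over all genes with 46.3% lower. P2ry12 was at -0.99, -0.33 and -0.39 in VTA, against 0.42, -0.015 and 0.015 in SN. The groups were apart, by a difference of -0.71 ± 0.27 (SE, limma adjusted p = 1), where 2.79% of all genes had an unadjusted p under 0.05. P2ry12, Itgam and C1qc were without overlap, 3 genes of 31, against 8.54% of all genes, and without VTA array 1 the median of the list was -0.054. After 10 days 21 of 31 were lower in VTA, against 48.9% of all genes, with a median of -0.10. There was no gene at an unadjusted p under 0.05, against 2.99% of all genes, and none without overlap, against 9%. That median was 0.092 without SN array 3, and the 2 genes of smallest p were C1qa (0.52 ± 0.33) and Itgb2 (-0.52 ± 0.38). C1qa differed by 0.043 without SN array 2 and Itgb2 by -0.050 without SN array 3.

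The response in VTA minus that in SN had a median of -0.18 over the list at 2 days and -0.069 at 10 days, with 20 of 31 genes below 0 at each, against 47.4% of all genes at 2 days and 48.2% at 10 days. At 2 days Itgam, given above, was the gene of smallest p. At 10 days the 2 genes of smallest p were Selplg (-0.86 ± 0.51) and Gpr34 (-0.70 ± 0.46), with limma adjusted p of 1 and no gene of the 31 at an unadjusted p under 0.05, against 3.17% of all genes. The Gpr34 value was -0.37 without SN array 1 of the 10-day group.

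The 31 genes spread more over the 18 arrays than most genes. Their median SD was 0.41, which is the 86.8 percentile of all genes, whose median was 0.24, and they ranged from 0.15 for Laptm5 (a mean of 5 probe sets) to 0.83 for Lyz2 (1 probe set). Averaging probe sets lowers an SD. Most of the 31 genes had 1 probe set, while 9010 of the 18193 genes had several, and the part of this in the rank was not tested. Of the 465 pairs among them 353 had a positive Pearson correlation over the 18 arrays, with a median r of 0.217. Among the 11 other gene lists described below, the median r ranged from -0.07 (neuronal ligands and inhibitory signals) to 0.639 (dopamine neuron markers). It was 0.05 for the 24 other microglia-enriched genes. Pairs over all genes were not computed. After adjustment over the 465 pairs 4 passed with Pearson's r (permutation test, 100000 permutations) and 0 passed with both Pearson's r and Spearman's rho. The arrays hold all 6 groups, and VTA and SN arrays may share mice.

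The closest pair was Aif1 with Fcgr3, at r = 0.877 and rho = 0.713 (permutation tests, adjusted p = 0.00697 and 0.0753). Without the 2 arrays farthest from the median of Aif1, VTA array 1 after 2 days of MPTP and SN saline array 2, r was 0.655. The adaptors Tyrobp and Fcer1g had r = 0.85 and rho = 0.651 (adjusted p = 0.0124 and 0.119 by permutation), and r was 0.495 without VTA array 1 after 2 days and SN array 3 after 10 days. Fcgr3 with Ctss had r = 0.815 and rho = 0.742 (adjusted p = 0.00697 and 0.0753 by permutation), and 0.713 without its farthest arrays. Itgb2 with Lyz2 had r = 0.756 and rho = 0.713 (adjusted p = 0.0267 and 0.0753 by permutation), and 0.595 without its farthest arrays.

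**Figure D4:**
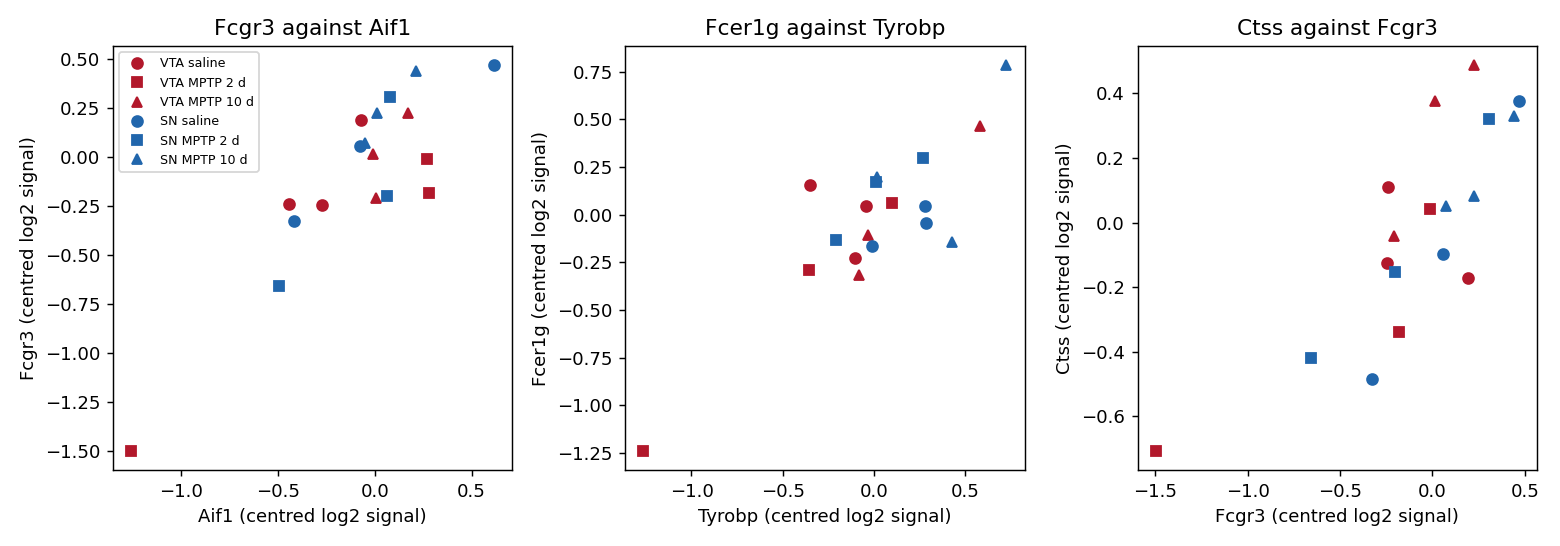
Centred log2 signals of 3 gene pairs on the 18 arrays; colour gives the region and shape the treatment. The lone point at the lower left of each panel is VTA array 1 after 2 days of MPTP, where Aif1 was at -1.26, Fcgr3 at -1.50, Tyrobp at -1.26 and Fcer1g at -1.24.

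The promoters of the genes in the 3 plotted pairs are shown because these genes moved most closely together over the arrays. They span 250 bases before to 50 after the annotated start site, are written 5′ to 3′ in the direction of the gene and come from RefSeq on GRCm38.p6. Tyrobp is named only. Capitals mark a match to GAGGAAG or its reverse complement CTTCCTC, the core of the sequence that PU.1, the product of Spi1, is known to bind.
Aif1, chr17:35176003-35176302, strand -: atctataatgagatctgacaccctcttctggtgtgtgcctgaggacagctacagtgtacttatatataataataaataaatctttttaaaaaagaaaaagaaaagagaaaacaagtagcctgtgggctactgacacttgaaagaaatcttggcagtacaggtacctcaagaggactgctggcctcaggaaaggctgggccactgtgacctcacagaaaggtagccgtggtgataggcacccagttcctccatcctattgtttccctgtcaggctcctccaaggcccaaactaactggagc
Fcgr3, chr1:171059354-171059653, strand -: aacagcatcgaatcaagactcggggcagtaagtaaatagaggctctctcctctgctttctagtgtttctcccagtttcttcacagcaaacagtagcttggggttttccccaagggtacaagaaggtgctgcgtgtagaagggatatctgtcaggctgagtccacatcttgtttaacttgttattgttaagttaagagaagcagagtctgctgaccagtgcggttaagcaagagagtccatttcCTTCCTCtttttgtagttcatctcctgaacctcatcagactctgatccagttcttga
Ctss, chr3:95526536-95526835, strand +: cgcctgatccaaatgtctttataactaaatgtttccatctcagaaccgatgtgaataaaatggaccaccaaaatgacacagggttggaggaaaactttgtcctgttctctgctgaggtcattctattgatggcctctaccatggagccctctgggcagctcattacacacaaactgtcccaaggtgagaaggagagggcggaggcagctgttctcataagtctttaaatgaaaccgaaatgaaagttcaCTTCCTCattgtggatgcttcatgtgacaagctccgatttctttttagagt
Fcer1g, chr1:171234300-171234599, strand -: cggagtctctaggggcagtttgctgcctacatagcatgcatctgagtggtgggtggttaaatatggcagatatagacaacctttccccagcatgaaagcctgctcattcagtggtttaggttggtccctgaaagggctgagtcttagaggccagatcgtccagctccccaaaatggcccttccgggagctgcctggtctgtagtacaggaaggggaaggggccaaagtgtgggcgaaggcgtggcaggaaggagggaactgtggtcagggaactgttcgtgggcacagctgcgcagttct

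In Fcgr3 the match begins 7 bases before the start site and ends directly at it, and in Ctss it begins 1 base before the start site and runs past it. The promoters of Aif1 and Fcer1g hold none in this window. A promoter entry was found for 22 of the 31 genes, and 9 of these 22 (40.9%: C1qc, Ctss, Fcgr3, Fcrls, Itgam, Laptm5, Mrc1, P2ry13 and Trem2) hold GAGGAAG on either strand, against 15.4% of all genes with an entry and 13.6% of all promoters. The longer GAGGAAGT, which contains it, was found for 2 of the 22 (9.09%: C1qc and Ctss), against 3.69% of all genes and 3.2% of all promoters. A match is a description of the letters and shows no binding.

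Further genes of microglia and of what acts on them were read from lists beside the 31. Of 24 other microglia-enriched genes 17 were below saline in VTA after 2 days of MPTP (median -0.13) and 13 in SN (median -0.069). Of 29 microglial activation genes 21 were below in VTA (median -0.13) and 23 in SN (median -0.17). At an unadjusted p under 0.05 and below saline were 7 of the 29 activation genes and 1 of the 24 other microglia-enriched genes in VTA, against 3.92% of all genes. In SN it was 2 of the 29 and 0 of the 24, against 692 of the 18193 genes in that direction and 6.65% in either. None of the genes on any list passed the adjusted test (limma). All 8 measured complement genes outside C1q were below saline in VTA (median -0.26) and 7 of 8 in SN (median -0.42).

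The class II antigen presentation gene H2-Eb1 was at -1.02, -0.43 and -0.45 in VTA after 2 days of MPTP and 0.63, -0.30 and 0.97 after 10 days, against 0.41, 0.80 and -0.48 with saline. In SN it was at -0.52, -0.35 and -0.76 after 2 days and 0.20, -0.026 and 1.22 after 10 days, against 0.38, 0.032 and 0.026 with saline. Every 10-day array was above every 2-day array in both regions. The 10-day minus 2-day difference was 1.07 ± 0.37 in VTA (SE, limma adjusted p = 0.663) and 1.01 ± 0.37 in SN (limma adjusted p = 1). Mertk, a receptor for the uptake of dying cells, differed the other way, by -0.75 ± 0.26 in VTA and -0.73 ± 0.26 in SN. Clec7a, the beta-glucan receptor dectin-1, was at -0.33, -0.37 and -0.44 in SN after 2 days, against 0.35, 0.48 and -0.29 with saline, a difference of -0.56 ± 0.20 (limma adjusted p = 0.646).

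The genes listed as ligands and inhibitory signals to microglia did not pass the test in any comparison, and the cells that made these transcripts were not measured. Cx3cl1, fractalkine, differed by -0.0038 ± 0.12 in VTA and 0.14 ± 0.12 in SN after 2 days, and by 0.10 ± 0.12 and 0.061 ± 0.12 after 10 days. Csf1 differed by 0.0039 ± 0.14 in VTA and -0.092 ± 0.14 in SN after 2 days. Cd200, whose product restrains microglia, differed by -0.16 ± 0.14 in VTA and -0.24 ± 0.14 in SN. Il34, the second ligand of Csf1r, was at -0.19, -0.61 and -0.16 in SN after 10 days of MPTP, against 0.37, 0.15 and 0.0069 with saline. These groups did not overlap, by a difference of -0.50 ± 0.24 (SE, limma adjusted p = 0.902).

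Markers of other cells differed beside the list. In VTA after 2 days of MPTP 12 of 14 astrocyte markers (median -0.16), 12 of 12 oligodendrocyte markers (median -0.36), 10 of 13 endothelial and pericyte markers (median -0.13) and 13 of 14 dopamine neuron markers (median -0.59) were also below saline. In SN after 2 days 14 of 14 dopamine neuron markers were below saline (median -0.98), while 12 of 14 astrocyte markers were above it (median 0.19). Also below saline in SN were 12 of 14 perivascular macrophage and monocyte genes (median -0.18), 12 of 15 lymphocyte and granulocyte markers (median -0.28) and 4 of 4 erythrocyte markers (median -0.52), as were 9 of 12 oligodendrocyte markers (median -0.18) and 7 of 13 endothelial and pericyte markers (median -0.033). In VTA after 2 days 8 of 14, 7 of 15 and 3 of 4 of these macrophage, lymphocyte and granulocyte, and erythrocyte genes were below saline (medians -0.14, 0.043 and -0.11). The mean of the astrocyte markers on an array ranged from -0.32 to -0.0083 in VTA after 2 days, against 0.025 to 0.14 with saline, and that of the endothelial and pericyte markers from -0.35 to -0.0061, against -0.063 to 0.10. The mean of the dopamine neuron markers ranged from -0.69 to 0.17 in VTA after 2 days, against -0.55 to 0.76 with saline, and from -0.54 to -0.13 in SN after 2 days, against 0.35 to 1.00 with saline. Th, the rate-limiting enzyme of dopamine synthesis, differed by -0.79 ± 0.52 in VTA and -1.29 ± 0.52 in SN after 2 days (SE, limma adjusted p = 0.756 and 0.696).

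On the arrays that stood out for the 31 genes some of the other lists lay the same way and some did not. On VTA array 1 after 2 days of MPTP 3 of 13 endothelial and pericyte markers, 1 of 14 astrocyte markers and 3 of 14 dopamine neuron markers were above their own medians over the arrays. Of all genes 53.8% were above theirs there. On the same array 9 of 12 oligodendrocyte markers, 9 of 15 lymphocyte and granulocyte markers and 7 of 11 neuronal ligands and inhibitory signals were above theirs. On SN array 3 after 10 days all 13 endothelial and pericyte markers, 12 of 14 astrocyte markers and 12 of 14 dopamine neuron markers were above their medians, while 6 of 12 oligodendrocyte markers were. Of all genes 51.4% were above theirs on that array. The part of these cells and arrays in the values of the 31 genes was not tested.

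**Figure D5:**
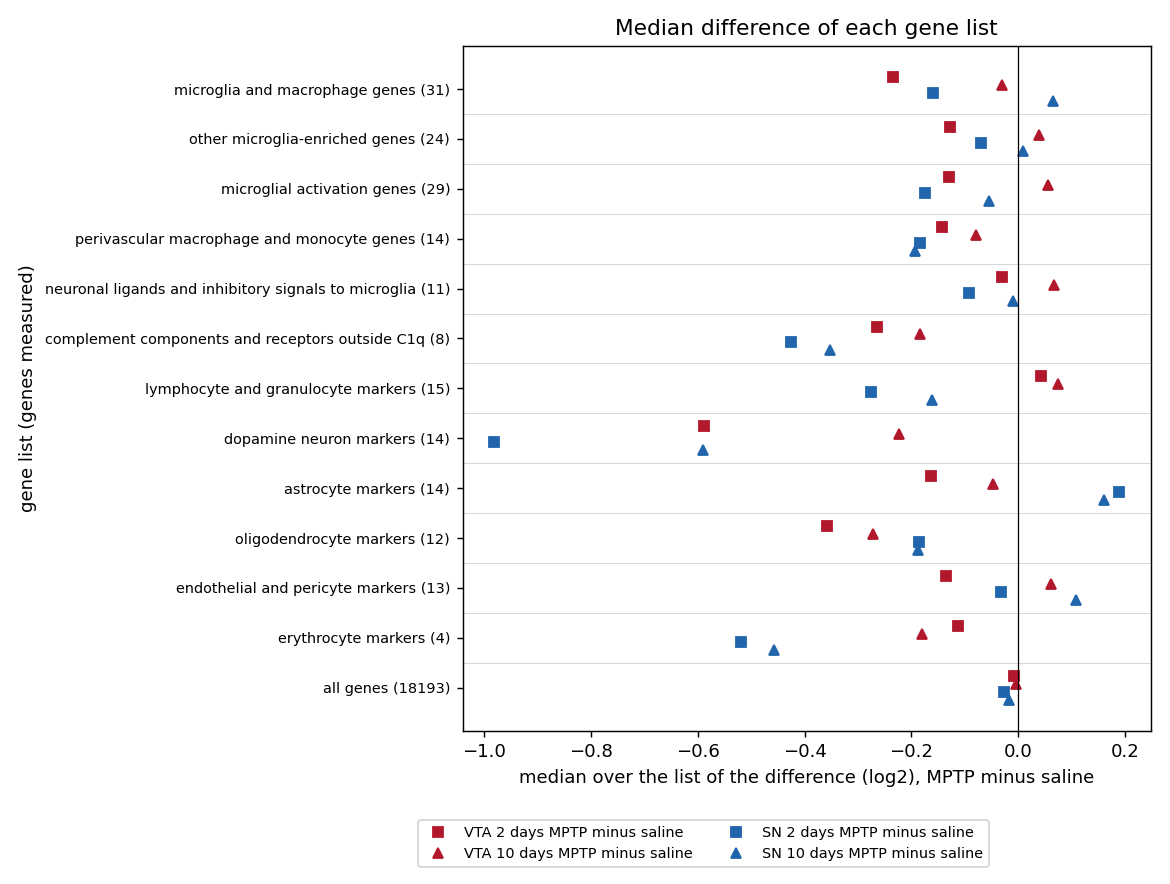
Median difference (log2, MPTP minus saline) of each gene list in VTA (red) and SN (blue) after 2 days (squares) and 10 days (triangles) of MPTP, with the number of genes measured in brackets. The microglia and macrophage list lies at -0.23 in VTA and -0.16 in SN after 2 days, and the dopamine neuron markers at -0.59 and -0.98.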

How the data were processed

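Gene expression was read on Affymetrix arrays from laser-captured midbrain dopamine neurons in 6 groups of 3 arrays, grouped by the sample titles. The file deposited by the authors holds 45101 probe sets by 18 arrays in log2 units, after RMA in GeneSpring GX 10.0, as the design text of the series states. No source states that they are centred, but the median of every probe set is 0 to within 5e-07. Dim probe sets could therefore not be filtered, and precision is limited by the number of arrays. In the platform annotation, which can be old, 34945 probe sets had a single symbol, 932 had more than 1, 9211 had none, and 64 controls were dropped. Columns of other samples numbered 0.

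A gene's probe sets were averaged, which gave 18193 genes, 9010 of them with several probe sets. A limma fit (version 3.58.1 in R 4.3.3, lmFit and eBayes) gave two-sided tests in 1 model of 6 group means with 12 residual and 4.06 prior degrees of freedom, with Benjamini-Hochberg adjustment over all genes at a threshold of 0.05. The fit was tested on simulated data. Figures and promoter motif counts used Python 3.11.15 and matplotlib 3.10.9. The labels call the replicates biological without tying arrays to mice, so p-values measure the spread between these arrays.

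The 31 genes, the other lists and the rule for naming genes were chosen with earlier results of these data known. In each comparison the genes of the list with an unadjusted p under 0.05 are named, or the 2 of smallest p, with a set of identity genes always eligible. Beside these, up to 2 genes of smallest p per other list and Cx3cl1, Csf1, Il34, Cd200 and Th are eligible. Genes whose arrays did not overlap, and those given for the spread of values, were named after their values were seen, as were Siglech, Laptm5, Cd68, Ctss and the adaptors outside that rule.

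Replicate numbers were checked for pairing. After 10 days of MPTP the deviations of same-numbered VTA and SN arrays from their group means correlated at 0.324, 0.281 and 0.399. Over all 9 VTA and SN pairs of a treatment the values ran from 0.05 to 0.399, with 7 over 0.1. Within a treatment, 17 of the 18 arrays correlated best with the array of their own number in the other region. Same-numbered arrays of different treatments also reached 0.218, and 19 of all 45 same-number pairs were over 0.1. These values do not settle whether the numbers pair arrays, and the reported fit holds no such pairing. Alternatives were other scalings, probe sets, groups, weights, blocks and left-out arrays.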

Additional observations from a re-analysis of the deposited data

How the results depend on the processing

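No gene of the 31 passed the adjusted test in any of the 11 comparisons under any of the 26 settings tried. No list median moved by more than 0.21, the SD of the list's array means within groups, pooled over the groups. That margin was wider than every list median apart from the -0.23 in VTA after 2 days against saline, so a median could turn sign within it. Leave-one-array-out medians of the list ranged, for MPTP against saline, from -0.31 to -0.14 in VTA and -0.18 to -0.043 in SN at 2 days, and from -0.20 to 0.14 in VTA and -0.087 to 0.20 in SN at 10 days. For 10 against 2 days they ranged from 0.053 to 0.30 in VTA and -0.016 to 0.23 in SN. For VTA against SN they ranged from -0.050 to 0.053 with saline, -0.26 to -0.054 at 2 days and -0.24 to 0.092 at 10 days, and for the response in VTA minus that in SN from -0.23 to -0.068 at 2 days and -0.21 to 0.076 at 10 days. The sign therefore turned with 1 array in both regions at 10 days, in SN between durations, between regions with saline and at 10 days, and for the difference of responses at 10 days. Without the 2 arrays of widest spread the median between regions with saline was -0.0062.

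With the replicate block (replicate number as a term of the fit) 0 of the 31 genes passed in every comparison. The smallest adjusted p of the list in VTA after 2 days was 0.376 (0.546 without the block, limma). Every group holds the same replicate numbers, so this block cannot change the list medians and does not test them. The block of treatment and replicate number together, added after the pairing check was seen, also gave 0 for the comparisons between regions, and the random block of the same pairs (correlation 0.187) gave 0 throughout. No block changed a call of the 31 genes. In VTA after 2 days 0 to 10 of the 31 were below saline at an unadjusted p under 0.05 over the settings.

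Counts over all genes were small and moved in 87 cases. After 2 days against saline they ran from 0 to 4 in VTA (2 as reported) and 0 to 20 in SN (0), and between durations from 0 to 12 in VTA (6) and 0 to 24 in SN (3). A filter on dim probe sets was not run, since the values hold no level.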
